A study of Homo sapiens with 6 samples.

Results

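Integrins and laminins are described here over 6 arrays of HMLE cells, a line of human mammary epithelial cells immortalised in culture. The members are 35 listed chains, made up of 17 integrin alpha chains, 8 integrin beta chains and 10 laminin chains, and each was read from probe sets annotated to that symbol alone. Of these, 33 matched, among 19775 genes read in the same way. ITGB6 had 4 probe sets that also carry another symbol, and LAMA3 had no probe set named to it, so neither was analysed here. The control line carries a pBabe retrovirus labelled shGFP. The Twist line carries a pBabe retrovirus for Twist, a factor known to push epithelial cells towards a mesenchymal state. Each line was given either the solvent DMSO or the compound Cmp302, of which the labels give only the code, and each of the 6 groups has 1 array. The titles read 5 µM and 10 µM, with 6 h in the protocol, whereas the treatment tags read 2 µM for 4 h and for 8 h. The arrays are called by their titles, and dose and time cannot be told apart. The sources used here do not say whether each line is a clone or a pool.

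Integrins are receptors of 1 alpha and 1 beta chain that hold cells to the matrix, and a beta chain such as ITGB1 can pair with many alpha chains. Laminins are trimers of an alpha, a beta and a gamma chain and are a main part of basement membrane. In basal epithelia, the integrin of ITGA6 and ITGB4 sits in hemidesmosomes, where it grips the laminin that contains LAMB3 and is tied to keratin filaments inside the cell.

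Values are log2 signals. Those under 3.71, the middle of all signals on the 6 arrays, were set to that floor, and a difference from the floor is a bound. With 1 array per group no single difference has a replicate check, so such differences are described against a 2-fold threshold, which is 1 log2 unit. "Rose" and "fell" are kept for calls of a limma fit over the 6 arrays, at an adjusted p of 0.05 over all 12482 genes tested. Only 2 residual degrees of freedom remain in it, and the spread it uses comes from the treatments, not from replicate cultures. Of 6 epithelial markers, 6 were above the floor in the control line (summed height over the floor 54.45 to 56.27) and 3 in the Twist line (6.23 to 7.26), with CDH1, EPCAM and KRT5 at the floor. All 5 mesenchymal markers were above it in both lines (26.83 to 27.52 and 40.99 to 42.36), and the mesenchymal factor ZEB1 read 12.72 to 13.16 there against 5.93 to 6.61 in the control line. TWIST1 read 10.48 to 10.70 in the control line and 11.35 to 11.96 in the Twist line. For GAPDH and ACTB, the log2 signal of the 3' probe sets less that of the middle ones tracks RNA integrity and labelling. In the control line this contrast was 0.28 under DMSO, 0.45 at 5 µM and 0.84 at 10 µM. It was 0.96 on the Twist DMSO array and 0.36 and 0.45 on the treated Twist arrays. The Twist DMSO array thus had the highest contrast, and it is the baseline of every Cmp302 change in that line. The control DMSO array had the lowest, so the lines were least alike in contrast on the DMSO pair. On both Cmp302 pairs the control array had the higher contrast. Differences between lines, and their change from pair to pair, carry this limit too, and its part in single differences was not tested. In bulk RNA, fewer cells with a transcript and less of it per cell cannot be told apart.

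In all, 23 members were above the floor on at least 1 array, 17 of them on all 6, and 10 were at the floor throughout. Those at the floor were ITGA2B, ITGA8, ITGA11, ITGAL, ITGAM, ITGAX, ITGB2, ITGB3, LAMA4 and LAMC3. ITGAL, ITGAM, ITGAX and ITGB2 form the leukocyte integrins, and 5 of 6 measured leukocyte markers, PTPRC among them, were at the floor as well. The exception was CD14, whose signals reached 4.81. ITGA2B and ITGB3 form the platelet fibrinogen receptor, and of 4 platelet markers PPBP and GP9 were above the floor in the control line and none in the Twist line. ITGB7, the partner of ITGAE and ITGA4 on lymphocytes, was barely above the floor in the control line (3.74, 3.85 and 4.03) and at it in the Twist line. A signal at the floor means that these probe sets read no higher than the middle of all signals. No detection call was used, so it does not show that the transcript was absent.

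**Figure D1:**
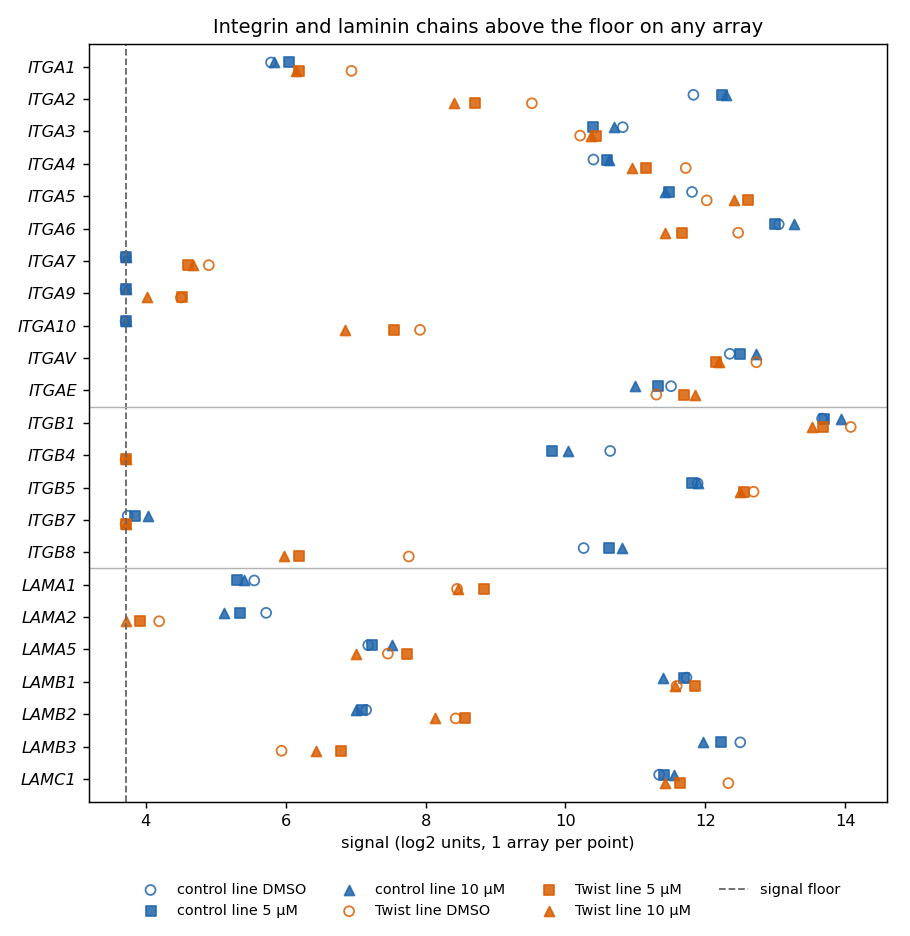
Log2 signal (x axis) of the 23 integrin and laminin chains above the floor on at least 1 array, with 1 point per array. Blue points are the control line and orange points the Twist line, and the dashed line is the floor of 3.71. The lines stand far apart for ITGB4, LAMB3, ITGB8, ITGA2, ITGA10 and LAMA1, while ITGB1 and LAMB1 overlap.

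The lines under DMSO were compared to ask which matrix adhesion genes differ in cells given Twist. The hemidesmosome and epithelial laminin chains ITGB4 and LAMB3 were the most reduced members, and the collagen receptor chain ITGA10 and the laminin chain LAMA1 the most increased. Of 23 members, 6 were higher past 2-fold and 5 lower under DMSO, where 11.9% of 12516 genes were higher and 13.5% lower (25.4% in all). On the 5 µM pair 4 were higher and 6 lower, beside 12.1% and 12.6% of genes (24.7% in all). On the 10 µM pair 3 were higher and 6 lower, beside 14.8% and 14.1% of genes (28.9% in all). In the limma fit with treatment as a factor, 6 of 23 members were called up in Twist cells and 6 down, against 13.7% and 14.9% of all 12482 genes (28.6% in all). Of the called members, ITGA7, ITGA9 and ITGA10 were at the floor on all control arrays, and ITGB4 on all Twist arrays. As for any gene at the floor throughout a line, their fitted differences are bounds. The floored line adds no spread to their SEs, so their p-values are not a full measure of error. The median over members was 0.09 log2 units, beside -0.01 over all genes. Of the 12 calls, 8 were kept in every fit that left out a treatment pair, and ITGA6, ITGA9, ITGB5 and LAMB2 were lost in some of them. Without the 5 µM pair, 3 higher and 5 lower members were called, with no share of all genes given for that fit.

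Among the beta chains, ITGB4, the hemidesmosome chain, read 10.64, 9.81 and 10.04 log2 units in the control line on the DMSO, 5 µM and 10 µM arrays. In the Twist line this probe set was at the floor on all 3 arrays. The difference under DMSO was at most -6.92, so that ITGB4 was at least 122-fold lower. The fit gave -6.45 ± 0.24 log2 units (SE, limma adjusted p = 3.4e-05). Its 4 detected probe sets were all lower under DMSO, from -6.92 to -1.38 log2 units, and 2 of them stayed slightly above the floor in the Twist line, at 3.99 to 4.25 and 4.51 to 4.59.

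ITGB8, which pairs with ITGAV in a receptor that activates latent TGF-beta, read 10.26, 10.63 and 10.81 in control cells and 7.76, 6.19 and 5.97 in Twist cells. On this probe set, its brightest, it was lower on every Twist array, and the gap was wider on the Cmp302 arrays than on the DMSO arrays. The DMSO difference was -2.50 log2 units, or 5.65-fold, and the fit gave -3.93 ± 0.49 (SE, limma adjusted p = 0.0029). Its other detected probe sets were at the floor in the Twist line. They gave at most -1.64, -0.91 and -0.85, and at most -0.77, -0.59 and -0.41, on the DMSO, 5 µM and 10 µM pairs. These bounds did not widen on the Cmp302 pairs.

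ITGB5, another partner of ITGAV that binds vitronectin, read 11.89, 11.81 and 11.89 in control cells and 12.69, 12.55 and 12.49 in Twist cells. It was the only beta chain called higher (0.71 ± 0.17 log2 units, SE, limma adjusted p = 0.030), with no overlap between lines but under 2-fold on this probe set. Its probe sets spanned 0.55 to 2.59 under DMSO. The widest gave 2.43 and 1.96 on the 5 µM and 10 µM pairs and was called past 2-fold (2.33 ± 0.22, SE, limma adjusted p = 0.001). Another was called at 1.11 ± 0.25 (SE, limma adjusted p = 0.024), and the remaining probe set was not called (limma adjusted p = 0.20). ITGB1, the common partner of most alpha chains, overlapped between lines, with 13.67 to 13.94 in the control line and 13.53 to 14.08 in the Twist line. Its fitted difference was -0.01 ± 0.21 (SE, limma adjusted p = 0.99).

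ITGA2, a collagen receptor chain of epithelia and platelets, read 11.83, 12.24 and 12.30 in control cells and 9.52, 8.71 and 8.41 in Twist cells. It was lower on every Twist array, with a DMSO difference of -2.31 log2 units, and the fit gave -3.25 ± 0.35 (SE, limma adjusted p = 0.0016). Its other probe set gave -3.57 under DMSO, and -2.84 and -2.97 on the 5 µM and 10 µM pairs. The gap on that probe set was thus widest under DMSO, unlike on the brightest. ITGA10, a collagen receptor chain best known from cartilage, was at the floor on all 3 control arrays and read 7.92, 7.55 and 6.85 in the Twist line. It was at least 18.5-fold higher under DMSO, with a fitted difference of 3.73 ± 0.24 (SE, limma adjusted p = 0.00023) from 1 probe set.

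ITGA1, another collagen and laminin receptor chain, read 5.79, 6.05 and 5.83 in control cells and 6.94, 6.19 and 6.14 in Twist cells. It was past 2-fold under DMSO (1.15), but 0.13 and 0.31 log2 units apart on the Cmp302 pairs, and was not called (limma adjusted p = 0.19). Its other probe set gave 1.09, 0.69 and 0.69 on the 3 pairs and was called (0.82 ± 0.17, SE, limma adjusted p = 0.020), as was ITGA1 when read by the median of its probe sets. ITGA11, the remaining collagen receptor chain, was at the floor.

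Of the laminin receptor chains, ITGA6 read 13.05, 13 and 13.27 in control cells and 12.47, 11.66 and 11.42 in Twist cells. Under DMSO it differed by -0.58, and by -1.35 and -1.85 on the 5 µM and 10 µM pairs. The fit called it lower (-1.26 ± 0.28, SE, limma adjusted p = 0.024). Its other probe set differed far more, by -3.76 under DMSO, and read 11.07, 10.94 and 10.64 in control cells and 7.31, 6.70 and 6.06 in Twist cells. The size of the ITGA6 difference thus depends on the probe set, while the direction does not. ITGA3, which binds epithelial laminins with ITGB1, read 10.39 to 10.82 in the control line and 10.21 to 10.43 in the Twist line, which overlap (limma adjusted p = 0.38). ITGA7, a laminin receptor chain of muscle, was at the floor in the control line and read 4.90, 4.60 and 4.68 in the Twist line. It was called higher (1.01 ± 0.12, SE, limma adjusted p = 0.0021), at signals close to the floor. The muscle markers MYOG and CKM were at the floor on all 6 arrays, and DES read at most 4.15.

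Among chains that bind fibronectin and related ligands, ITGA5, the main fibronectin receptor chain, read 11.81, 11.48 and 11.43 in control cells and 12.02, 12.61 and 12.41 in Twist cells. It was higher on each Twist array, by 0.21 under DMSO and 1.12 and 0.98 on the Cmp302 pairs, and was not called (limma adjusted p = 0.069). ITGA4, which binds fibronectin and VCAM1, read 10.40, 10.59 and 10.63 in control cells and 11.72, 11.15 and 10.95 in Twist cells. On this probe set, its brightest, the gap shrank from 1.32 under DMSO to 0.55 and 0.32 on the Cmp302 pairs (limma adjusted p = 0.095). Another of its 4 probe sets gave 0.76, 0.83 and 0.52 on the DMSO, 5 µM and 10 µM pairs. Only that probe set was called (0.70 ± 0.20, SE, limma adjusted p = 0.049), as was ITGA4 when read by the median of its probe sets. ITGA9, which binds tenascin C, was at the floor in the control line and read 4.50, 4.51 and 4.02 in the Twist line. It was called higher (0.63 ± 0.14, SE, limma adjusted p = 0.023), at signals close to the floor. Only 1 of its 4 probe sets was above the floor on any array. ITGAV, the partner of ITGB5 and ITGB8, overlapped between lines at 12.16 to 12.73 over all 6 arrays. ITGAE, the E-cadherin receptor chain of intraepithelial lymphocytes, also overlapped at 11 to 11.85, although ITGB7 and the lymphocyte marker CD3E were at or near the floor.

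Among the laminins, LAMB3, the beta chain of the epithelial anchoring laminin, read 12.50, 12.22 and 11.97 in control cells and 5.94, 6.79 and 6.43 in Twist cells. The DMSO difference was -6.56 log2 units, or 94.2-fold lower, with a fitted difference of -5.85 ± 0.29 (SE, limma adjusted p = 9.3e-05). LAMA1, the alpha chain of the laminin of early embryos, went the other way, at 5.55, 5.30 and 5.41 against 8.45, 8.83 and 8.46. It was 7.47-fold higher under DMSO, with a fit of 3.16 ± 0.22 (SE, limma adjusted p = 0.00030). Each of the LAMB3 and LAMA1 differences rests on 1 probe set above the floor.

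LAMA2, the alpha chain of muscle and nerve basement membrane, was lower in the Twist line at low signals. It read 5.72, 5.34 and 5.12 against 4.19, 3.91 and the floor (-1.46 ± 0.12, SE, limma adjusted p = 0.00053), and its 3 probe sets ranged only from -1.53 to -1.30 under DMSO. LAMB2, a beta chain that can take the place of LAMB1, read 7.15, 7.09 and 7.01 against 8.43, 8.57 and 8.13 and was called higher (1.29 ± 0.21, SE, limma adjusted p = 0.0076). The widely used chains were closer between lines. LAMB1 read 11.40 to 11.73 in the control line and 11.57 to 11.85 in the Twist line, which overlap. LAMC1, the common gamma chain, read 11.34, 11.41 and 11.55 against 12.33, 11.64 and 11.42, with a gap of 0.99 under DMSO and -0.13 on the 10 µM pair (limma adjusted p = 0.39). Its other probe set was higher in Twist cells on all 3 pairs, by 0.63, 0.89 and 0.67, and was called (0.73 ± 0.19, SE, limma adjusted p = 0.039). LAMA5, a broadly expressed alpha chain, read 7 to 7.74 over all 6 arrays and overlapped.

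**Figure D2:**
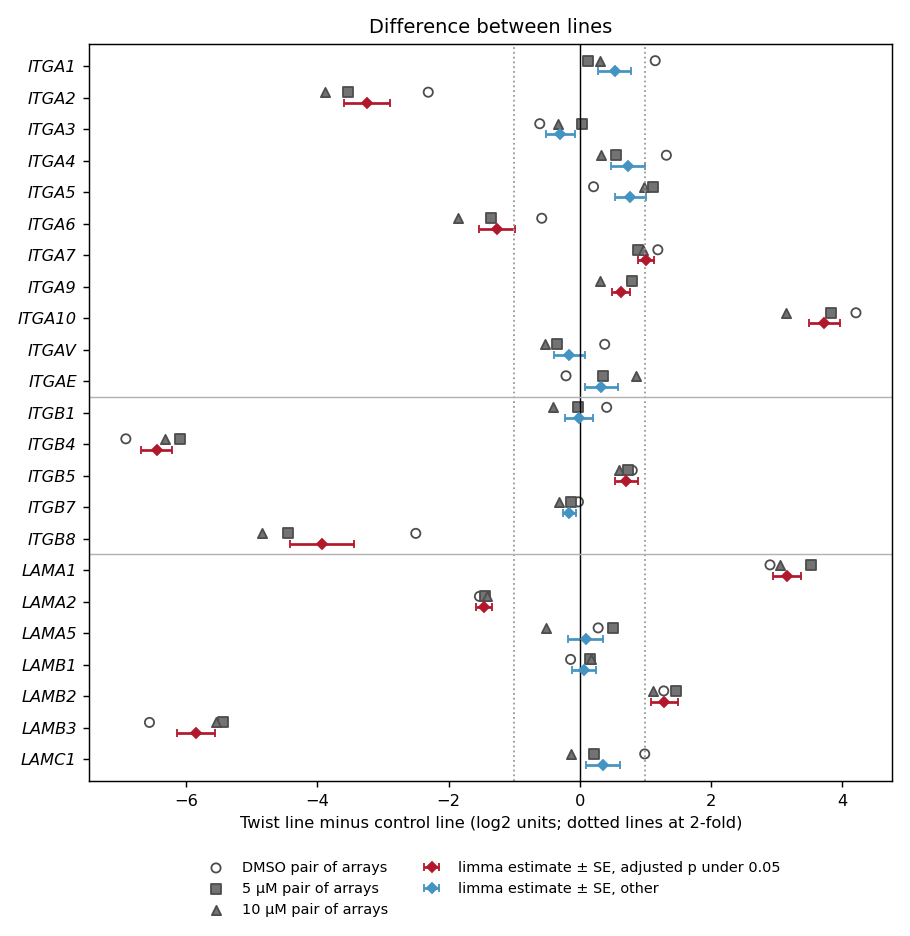
Difference between lines (Twist minus control, log2 units) for each of the 23 chains. Grey points are the DMSO, 5 µM and 10 µM pairs of arrays, and diamonds are limma estimates with bars of 1 SE, red where the adjusted p is under 0.05. ITGB4 and LAMB3 lie near -6, and ITGA10 and LAMA1 lie above 3. On the brightest probe sets plotted here, the DMSO pair is the least negative of the 3 for ITGA2, ITGA6 and ITGB8. For the other ITGA2 probe set, not plotted, it is the most negative (-3.57).

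Set out as receptor pairs, ITGB4 was at or near the floor in the Twist line while its only alpha partner, ITGA6, stayed at 11.42 or above there on its brightest probe set. On the other ITGA6 probe set the Twist arrays read 7.31, 6.70 and 6.06 against 11.07, 10.94 and 10.64 in the control line. How far ITGA6 was kept thus depends on the probe set. ITGB8 and ITGB5, which share ITGAV, were called in opposite directions, with ITGAV between 12.16 and 12.73 in both lines. ITGA2 and ITGA10, which share ITGB1, were also called in opposite directions. Among laminins, LAMB3 was called lower and LAMB2 higher, with LAMB1 not called, and LAMA1 was called higher. These are signals of single transcripts, and no heterodimer or trimer was measured.

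Promoter windows show what sequence lies ahead of members that were apart between the lines. They are the 250 bases before the transcript start in RefSeq on GRCh38.p14, found for 23 of the 33 matched members, some with several starts. ITGA3, ITGA7, ITGA9, ITGAL, ITGAX, ITGB2, ITGB3, ITGB4, LAMA1 and LAMC3 had none in the table used. Windows with matches are shown for LAMB3 and ITGA6, called lower, and for ITGB5, called higher, beside the window of ITGA10, called higher, which has none. The motifs were the E-box CAGGTG, bound by ZEB and Snail factors, the E-boxes CATATG and CATCTG, bound by Twist, and TGANTCA, bound by AP-1, each on both strands. Capitals mark a match.
LAMB3, chr1:209652426-209652675, minus strand: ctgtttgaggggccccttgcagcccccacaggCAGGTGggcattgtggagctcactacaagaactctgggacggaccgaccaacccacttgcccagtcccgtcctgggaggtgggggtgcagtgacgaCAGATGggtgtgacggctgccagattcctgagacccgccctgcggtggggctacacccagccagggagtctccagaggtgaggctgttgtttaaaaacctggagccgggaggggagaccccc
LAMB3, chr1:209651375-209651624, minus strand: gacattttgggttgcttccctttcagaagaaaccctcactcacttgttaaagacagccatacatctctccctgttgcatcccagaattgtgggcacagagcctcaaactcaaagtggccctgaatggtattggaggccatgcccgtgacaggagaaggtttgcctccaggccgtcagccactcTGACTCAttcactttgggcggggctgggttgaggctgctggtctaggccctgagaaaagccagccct
ITGA6, chr2:172427086-172427335, plus strand: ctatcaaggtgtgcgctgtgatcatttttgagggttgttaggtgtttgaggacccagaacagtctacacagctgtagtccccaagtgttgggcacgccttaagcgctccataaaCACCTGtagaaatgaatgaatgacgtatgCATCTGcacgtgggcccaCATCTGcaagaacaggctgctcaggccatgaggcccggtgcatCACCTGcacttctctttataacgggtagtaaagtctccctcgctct
ITGB5, chr3:124887366-124887615, minus strand: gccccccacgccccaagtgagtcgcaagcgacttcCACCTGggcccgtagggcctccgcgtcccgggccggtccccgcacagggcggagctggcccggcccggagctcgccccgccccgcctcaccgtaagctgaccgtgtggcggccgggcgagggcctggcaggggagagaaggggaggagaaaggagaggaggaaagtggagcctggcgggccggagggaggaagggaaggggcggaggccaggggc
ITGA10, chr1:145910051-145910300, minus strand: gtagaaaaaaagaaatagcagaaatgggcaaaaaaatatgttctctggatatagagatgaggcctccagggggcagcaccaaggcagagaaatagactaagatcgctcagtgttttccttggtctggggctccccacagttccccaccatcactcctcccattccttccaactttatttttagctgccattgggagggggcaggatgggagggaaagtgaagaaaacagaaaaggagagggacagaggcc

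The first LAMB3 window held CAGGTG at 218 bases and CATCTG (as CAGATG) at 122 bases before the start. The second held an AP-1 match 67 bases before its start. Another LAMB3 window overlaps the first and held the same CATCTG match. The ITGA6 window held CAGGTG (as CACCTG) at 136 and 46 bases and CATCTG at 107 and 89 bases before the start, while the window of a second ITGA6 start held no match. This ITGB5 window held CAGGTG 215 bases before its start, and the windows of its 2 other starts held no match. The ITGA10 window, like those of ITGA2 and ITGB8, held none of the 4 motifs. CAGGTG was in 20% of the 5 windows of members called higher and in 25% of the 8 windows of members called lower. For CATCTG these shares were 0% and 37.5%, for TGANTCA 0% and 12.5%, and for CATATG 0% in both. The 37.5% rests on 3 windows, among which the LAMB3 windows overlap and share the same match. Among 30 windows of matched members, 16.7% held CAGGTG, 3.33% CATATG, 10% CATCTG and 3.33% TGANTCA. Over all 35116 windows of this length the shares were 17.5%, 2.63%, 12.2% and 6.57%. The shares over all matched members thus lay near those of promoters at large. A match here is a description of letters and no site of binding.

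In the Twist line several integrin chains had lower signals on the Cmp302 arrays than under DMSO. At 10 µM, 4 of 21 members above the floor were lower past 2-fold (ITGA2, ITGA6, ITGA10 and ITGB8) and 0 higher, against 8.48% lower and 8.04% higher of 11935 genes (16.5% in all). At 5 µM only ITGB8 was past 2-fold, where 5.03% of genes were lower and 4.27% higher (9.3% in all). The median over members was -0.48 at 10 µM beside -0.01 over all genes, and 16 of the 21 members were below DMSO. In the fit of a trend over the 3 arrays, coded 0, 1 and 2, 6 of 23 members fell and 0 rose, with 11.3% of all genes falling and 10.7% rising. The 26.1% of members called, in either direction, is near the 22.1% of all genes.

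ITGB8 moved most with the compound. From 7.76 under DMSO it differed by -1.57 at 5 µM and -1.79 at 10 µM, or 3.45-fold lower, and it fell by 0.89 ± 0.19 log2 units per level (SE, limma adjusted p = 0.032). Its 2 other probe sets above the floor in the control line were at the floor on the Twist arrays and could not show a change. ITGA2 differed from DMSO by -0.81 and -1.11 and fell by 0.55 ± 0.12 per level (SE, limma adjusted p = 0.031). Its other probe set read 7.25, 7.75 and 7.66 on the Twist arrays, 0.41 above DMSO at 10 µM, so the probe sets of ITGA2 went in opposite directions. ITGA6 fell as well, with differences of -0.81 and -1.05 (-0.52 ± 0.11 per level, SE, limma adjusted p = 0.031), and its other probe set gave -1.25 at 10 µM. These chains were already lower in the Twist line than in the control line.

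The other calls were in chains with higher Twist signals under DMSO. ITGA10 differed from DMSO by -0.37 and -1.07 (-0.53 ± 0.09 per level, SE, limma adjusted p = 0.021). It was at the floor on all control arrays, which add no spread to this SE, so the p-value is not a full measure of error. ITGA4 differed by -0.57 and -0.77 (-0.38 ± 0.10, SE, limma adjusted p = 0.045), with all 4 probe sets below DMSO at 10 µM, from -1.42 to -0.20. LAMC1 differed by -0.69 and -0.91 (-0.45 ± 0.10, SE, limma adjusted p = 0.034), but its other probe set gave 0.01 at 10 µM. The brightest ITGB4 probe set stayed at the floor on every Twist array. LAMB3 had differences of 0.85 and 0.49 from its low DMSO signal of 5.94, and ITGA5 of 0.59 and 0.39, and neither was called. LAMA1 differed by 0.38 and 0.01. ITGB1 differed by -0.39 and -0.55 and was not called (limma adjusted p = 0.059). Another ITGB1 probe set gave -0.90 at 10 µM and was called (-0.45 ± 0.09 per level, SE, limma adjusted p = 0.028), while a further one gave -0.09.

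These trends rest on few arrays. Leaving out the Twist DMSO array, the Twist 10 µM array or any single control array left 0 of the 6 calls, at 1 residual degree of freedom. Without the Twist 5 µM array 7 members were called, and they were not the same set. ITGA4, ITGA10, ITGB8 and LAMC1 were among them, ITGA2 and ITGA6 were not, and ITGA7, ITGA9 and ITGAV were added. The residual spread in that fit comes from the control line alone. ITGA7, ITGA9 and ITGA10 were at the floor there, so they had no spread of their own. The share of all genes called in that fit is not given. With the contrast matched by each gene's slope in the control line, the 10 µM changes of ITGA2 and ITGA6 were -0.73 and -0.81, under 2-fold, while ITGB8 (-1.32) and ITGA10 (-1.07) stayed past it. ITGA10 was at the floor in the control line and cannot be moved by that step. The control-line slope also holds any response to Cmp302 there.

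**Figure D3:**
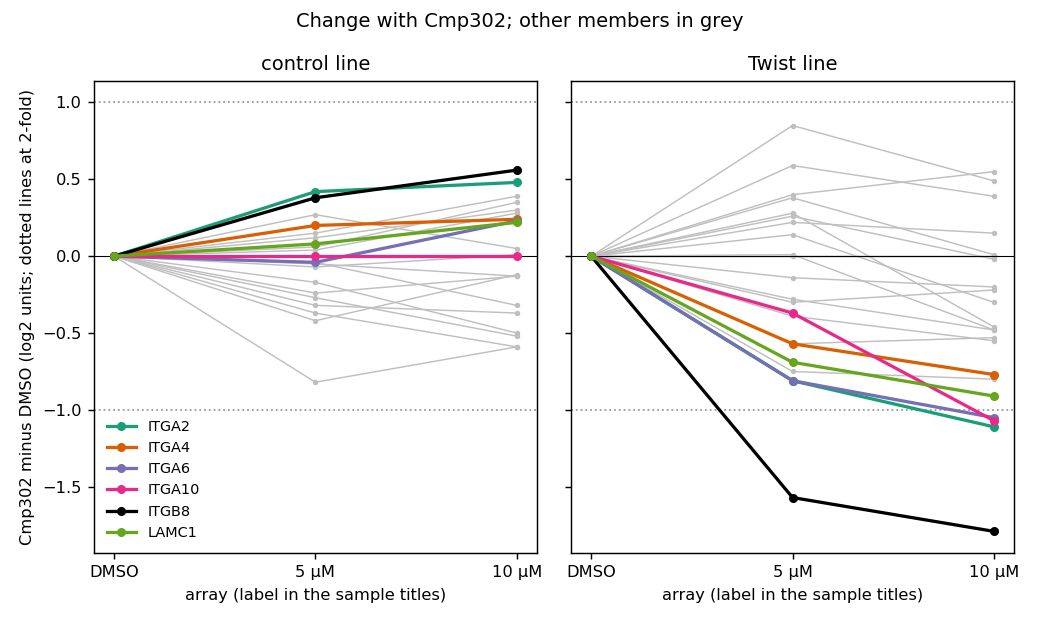
Change with Cmp302 (log2 units against the DMSO array of the same line) on the 5 µM and 10 µM arrays, in the control line (left) and the Twist line (right), 1 line per chain. Coloured lines are the 6 chains that fell in the Twist-line trend, led by ITGB8 at -1.79, and grey lines are the others. In the control line all members lie within 2-fold.

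In the control line no member passed 2-fold at either level, of 20 above the floor, where 0.117% of genes did at 5 µM (0.0585% in each direction) and 0.451% at 10 µM (0.209% higher, 0.242% lower). The widest changes were in ITGB4 (-0.82 and -0.59), LAMA2 (-0.37 and -0.59), ITGB8 (0.38 and 0.56), LAMB3 (-0.27 and -0.52), ITGAE (-0.17 and -0.50) and ITGA2 (0.42 and 0.48). For ITGB8 and ITGA2 these come from the brightest probe set. At 10 µM the other detected probe sets of ITGB8 went as low as -0.79, and that of ITGA2 gave -0.18. With limma 0 members were called for a trend there, as were 0% of all genes, and 3 members had an unadjusted p under 0.05, 1 up and 2 down, where 7.51% of genes did (2.03% up, 5.47% down).

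The response was compared between lines by the difference of the trends. With limma 0 of 23 members were called (1.55% of genes were, 0.737% higher and 0.809% lower). At an unadjusted p under 0.05, 1 member was higher and 8 lower, against 20.5% and 19% of genes (39.5% in all). The members with the smallest adjusted p were ITGA2 (-0.79 ± 0.16 log2 units per level, SE, limma adjusted p = 0.055), ITGB8 (-1.17 ± 0.27, SE, 0.056) and ITGA10 (-0.53 ± 0.12, SE, 0.056). ITGA10 was at the floor on all control arrays, so its value restates its Twist trend and cannot show a difference in response. With the levels coded 0, 1 and 1, which treats both Cmp302 arrays of a line alike, 7 members were called, 6 lower and 1 higher in the Twist line. The share of all genes called was then 26.8%, with 12.6% higher and 14.2% lower, so that this count of members is near the background. The 6 were ITGB8 (-2.15 ± 0.29, SE, limma adjusted p = 0.017), ITGA2, ITGA6, LAMC1, ITGA4 and ITGAV, and the 1 was ITGA5 (0.84 ± 0.18, SE, limma adjusted p = 0.027).

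Probe sets of 1 gene read different parts of its transcripts, and 12 of the 23 members had at least 2 above the floor. Under DMSO the probe sets of 10 of these 12 shared a direction between lines, the exceptions being ITGB1 and LAMB1, whose differences crossed 0. The spread was widest for ITGB4 (SD 2.37 log2 units over 4 probe sets, 2 of them bounded by the floor) and ITGA6 (SD 2.25 over 2). For the 10 µM change in the Twist line it was widest for ITGA2 (SD 1.07).

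**Figure D4:**
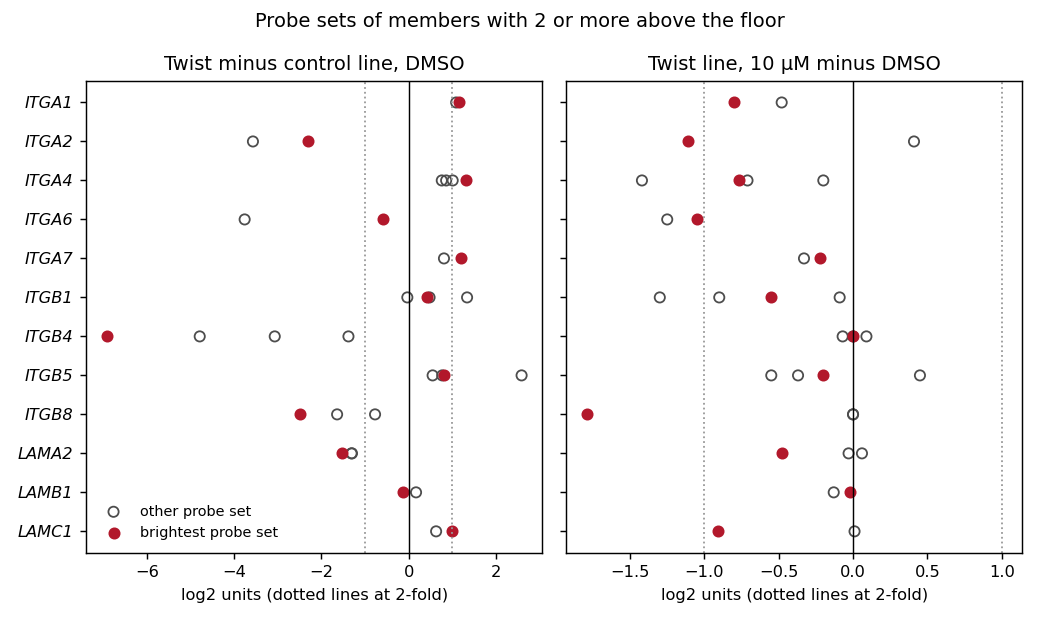
Log2 differences of each probe set above the floor for the 12 chains with at least 2, between lines under DMSO (left) and for 10 µM against DMSO in the Twist line (right). Filled points are the brightest probe set, used to read the gene, and open points the others. ITGA6 spans -3.76 to -0.58 on the left, and the probe sets of ITGA2 lie on either side of 0 on the right.

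Genes that work with these receptors were read from 4 lists, whose shares called between lines stand beside 28.6% of all genes (13.7% higher, 14.9% lower). Of 5 measured hemidesmosome genes, 1 was called higher in the Twist line and 2 lower by limma (60%). The keratin genes KRT14 (-9.88 under DMSO) and KRT5 (at most -9.66), also markers of basal cells, were lower. DST, which holds the plakin that links ITGB4 to keratin as well as other isoforms, was higher (1.2). Of 25 measured adaptor and focal adhesion genes, 6 were called higher and 6 lower (48%). The tensin gene TNS4 (at most -9.02) and the scaffold gene NEDD9 (at most -3.59) were lower, while TNS1 (2.71) and the talin gene TLN2 (2.09), which activates integrins, were higher. Of 16 measured genes of basement membrane and other laminin receptors, 4 were called higher and 7 lower (68.8%). The laminin-binding linker NID1 (at least 8.87), the syndecan gene SDC2 (at least 7.76) and the netrin gene NTN4 (4.30) were higher, and FRAS1 (at most -4.17) lower. Of 15 measured ligand genes, 9 were called higher and 2 lower (73.3%), with a median of 1.87 beside -0.01 over all genes. The collagen gene COL3A1 (at least 9.67), the fibrillin gene FBN1 (at least 8.77) and FBLN5 (at least 6.99) were higher. NPNT, encoding nephronectin, a ligand of the receptor with ITGA8, was lower (at most -7).

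In the Cmp302 trend of the Twist line, which called 22.1% of all genes (11.3% falling, 10.7% rising), limma called 0 of 5 hemidesmosome genes. Of 25 adaptor genes 2 fell and 0 rose (8%), of 16 basement membrane genes 3 fell and 0 rose (18.8%), and of 15 ligand genes 3 fell and 1 rose (26.7%). The adaptors' share was below that of all genes, and the shares of the basement membrane and ligand genes were near it. PLEC, a hemidesmosome linker, was 1.02 log2 units above DMSO at 10 µM and was not called (limma adjusted p = 0.092). ICAM1, the ligand of leukocyte integrins, differed from DMSO by 5.36 at 10 µM and THBS1, a ligand of several integrins, by -2.05. The collagen genes COL1A2 and COL3A1 differed by -1.95 and -1.03. COL4A5, a chain of basement membrane collagen, differed by -2.13 and NID1 by -1.11. Of the adaptors, KANK2, which binds talin, differed by -1.11, and NEDD9 by at least 1.08 from the floor. THBS1 (limma adjusted p = 0.041) and COL1A2 (limma adjusted p = 0.038) were called for a difference of trends between lines, as were 1.55% of genes. COL1A2 was at the floor on all control arrays, so its value restates its Twist trend and cannot show a difference in response. In the control line the collagen gene COL1A1 was the only partner gene past 2-fold. It differed from DMSO by 0.13 at 5 µM and 2.61 at 10 µM, where 0.451% of all genes passed 2-fold.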

How the data were processed

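Total RNA of 6 samples was hybridised to Affymetrix Human Genome U133 Plus arrays, 1 per group, as given by the labels. The deposited values are log2 signals per probe set, judged from their range since the labels name no unit. Per the submitters' processing notes, the software was GCOS 1.2. Background correction, summarisation and normalization are not given in the sources used here, and the deposited medians lay between 3.69 and 3.74.

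Of 54613 probe sets, after 62 controls were left out, 41091 carried 1 symbol, 1801 several and 11721 none in the platform annotation used. Arrays were shifted by -0.03 to 0.01, floored at the median, and each gene read by its brightest probe set. Fits were run with limma (3.58.1, under R 4.3.3), with eBayes set to follow a variance trend, on genes whose signal passed the floor on 2 or more arrays. P-values were adjusted by Benjamini-Hochberg, and the fits were tested on simulated data. The simulated noise had the same size for all genes and no floor was applied, so that test does not cover genes at the floor. Members were named with all signals where past 2-fold between lines under DMSO or at 10 µM, or called by a fit, and further members by choice. Partner genes were named if past 2-fold and among the 4 widest of their list. The members and lists were chosen with earlier results of these data known. Alternatives covered scaling, floor, probe set choice, filter, level coding, RNA quality and left-out arrays.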

Additional observations from a re-analysis of the deposited data

Results flagged for a closer look

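ITGA2 and ITGB8 had Cmp302 changes of opposite sign in the lines on both treated arrays, below DMSO in the Twist line and above it in the control line. At 10 µM the Twist change minus the control change was -1.59 log2 units for ITGA2 and -2.35 for ITGB8. The test of the difference gave limma adjusted p-values of 0.055 for ITGA2 and 0.056 for ITGB8, which miss the threshold. The opposite signs hold for the brightest probe set of each gene. At 10 µM the other ITGA2 probe set gave 0.41 in the Twist line and -0.18 in the control line. Other ITGB8 probe sets gave down to -0.79 in the control line and were at the floor in the Twist line. The Twist DMSO array, with a 3' to middle contrast of 0.96, is the baseline of both Twist values, and its part in the result beyond the values given was not tested.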

How the results depend on the processing

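The count of 11 members past 2-fold between lines under DMSO ranged from 8 to 12 over the scalings, floors and probe set rules. The 12 members called between lines became 19 with the 3' to middle contrast as a covariate, at 1 residual degree of freedom, and were 8 to 16 without single arrays or pairs. The 4 members past 2-fold at 10 µM in the Twist line became 2 when matched on RNA quality. The 6 called for a Twist-line trend became 2 with the median over probe sets and 0 with no filter on low signals, and were 0 to 7 without single arrays. The 0 called for a difference of trends became 7 with levels coded 0, 1 and 1, and were 0 to 5 without single arrays. The 1 member past 2-fold at 5 µM in the Twist line, with alternatives chosen after seeing the data, was ITGB8, except that the median over probe sets gave ITGB1 in its place. For the control line the counts stayed at 0 under each alternative run. Without suffixed probe sets ITGB4 was read by a probe set at the floor and showed no difference. Among the counts under alternatives, only that for levels coded 0, 1 and 1 has a share of all genes given. The others cannot tell a change in the members from a change in calls over all genes. The causes were not tested. The fit between lines pairs the arrays by treatment. The labels carry no replicate numbers, so no pairing by replicate was made. The number of arrays limits the precision.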
